A study of Homo sapiens with 5 samples.

Results

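The genes described are those of the transforming growth factor β (TGFβ) and bone morphogenetic protein (BMP) pathway together with TGFBI, a matrix protein named for its induction by TGFβ. They were taken from a list of 47 gene names, and every probe set that the platform annotation assigns to 1 of these genes alone was used. The arrays held 46 of the 47 genes through 134 probe sets, out of 19775 genes and 54613 probe sets in all. BMPR1A, a type I receptor for BMPs, was assigned no probe set alone in the annotation used here and is not analysed. Where genes were counted, each was represented by its probe set of highest average signal.

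Each of the 5 Affymetrix arrays measured 1 stably transfected population of MIAPaCa2, an established line of poorly differentiated pancreatic ductal adenocarcinoma (PDAC) that lacks the α2 integrin subunit, a receptor chain for collagen. Full-length α2 under a cytomegalovirus promoter was carried by MP2-α2/CI cells, which were kept on collagenI, and by MP2-α2/TC cells of the same transfection, which were kept on standard plastic. MP2-α2Δ cells carried α2 without its cytoplasmic tail and were kept on collagenI, and MP2-α9α2 cells carried the α9 extracellular and transmembrane parts joined to the α2 tail and were kept on a tenascin fragment. MP2-mock cells carried the empty vector, and the labels do not name the surface they grew on. CollagenI was coated at 25 μg/mL for panning of the α2 and α2Δ cells, and the tenascin fragment at 10 μg/mL. All 5 were stable populations held under drug selection, with zeocin for the α2 constructs and G418 for the chimera. Between these last integrin populations, construct, substrate and drug therefore cannot be told apart.

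With 1 array per population there was no replicate error and no test between populations. Values are the authors' normalized signals, read here as log2, so that a difference of 1 is a 2-fold difference, and the number of arrays limits the precision. Signals under a floor set by 107 odorant receptor probe sets (2.21 to 2.27 on the 5 arrays) were raised to it before a difference was taken. MP2-α2/CI, MP2-α2/TC and MP2-mock arrays shared a minimum of 2.24, and MP2-α2Δ and MP2-α9α2 arrays shared a minimum of 2.21, which was taken to mean that they were normalized as 2 sets. Over the 27320 probe sets that exceeded the floor everywhere, the median signal was 7.72 for MP2-α2Δ and 7.69 for MP2-α9α2, against 6.88 to 6.89 for the other arrays. Differences are therefore given mainly within a set. The epithelial markers KRT8 and KRT18 lay between 14.2 and 15.2 on all arrays and KRT19 between 11.7 and 13.0, while EPCAM and CDH1 lay at or next to the minimum. Of 10 fibroblast markers, 5 were above the floor in each of the MP2-α2Δ and MP2-α9α2 populations, against 3 in each other population. COL1A2 (11.97 to 13.08), COL1A1 (7.18 to 8.11) and ACTA2 (6.997 to 8.63) were above it on every array. PDGFRB (2.23) and THY1 (2.28) passed only in MP2-α2Δ and MP2-α9α2 cells, close to the floor of 2.21 there. PDGFRB had 2.24 on the arrays of the first set, under their higher floors. COL3A1, DCN, LUM, PDGFRA and FAP stood at the minimum throughout. The summed log2 level of the list ranged from 44.7 to 45.2 in that pair, against 41.8 to 42.2 in the first set. The part of these markers in the results was not tested. In such bulk samples, fewer cells with a transcript and less of it per cell cannot be told apart. Of 6 blood markers on the arrays only CD14 passed the floor, and PTPRC stood at the minimum on each array. An ITGA2 probe set read 7.28 in MP2-α2Δ cells and stood at the minimum on the other 4 arrays, and all 4 ITGA9 probe sets stood at the minimum throughout. The study's text says that its arrays found no α2 expression in any population, and that the α2 transgene lacks the part these probes read. The ITGA2 signal in MP2-α2Δ cells differs from the first statement, and its source was not tested. ITGA2 is therefore no check of the labels. Whether the ITGA9 probes can read the chimera is not stated, so that they are no check either.

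TGFβ is secreted in a latent complex and held in the matrix by latent TGFβ binding proteins until it is released. TGFβ, activins and BMPs then join type II and type I receptor kinases, which phosphorylate receptor SMADs that enter the nucleus with SMAD4. TGFβ and activin mainly use SMAD2 and SMAD3, and BMPs mainly SMAD1, SMAD5 and SMAD9, whose best known target genes are those of the ID proteins. Loss of SMAD4 is common in PDAC.

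Of the 46 genes, 34 were above the floor on all 5 arrays, 5 on some and 7 on none. The 7 were the ligands BMP2 and BMP4, the activin subunits INHBA and INHBB, the BMP antagonist GREM1, the inhibitory SMAD7 and TGFBR2, the type II receptor that binds TGFβ. The 5 above the floor on some arrays were TGFB2, GDF15, FST, CHRD and BAMBI. FST (follistatin, an activin trap) had 2.79 on each array of the first set and 2.21 on both of the second, and CHRD (chordin, a BMP trap) had 3.15 on both arrays of the second set and 2.24 on each of the first, so that these low signals followed the normalization set. TGFB2, the second TGFβ ligand, passed the floor only in MP2-α2Δ (2.55) and MP2-α9α2 (2.22) cells. Both TGFBR2 probe sets stood under the floor in every population, and its signal in these cells was not detectable. The strongest signals were those of ID1 and ID3, inhibitors of helix-loop-helix transcription factors, with ID1 at 12.71 in MP2-α2/CI, 12.90 in MP2-α2/TC, 13.37 in MP2-α2Δ, 12.07 in MP2-α9α2 and 12.93 in MP2-mock cells. SMAD2 was the strongest SMAD, at 11.12 in MP2-α2/CI, 11.12 in MP2-α2/TC, 12.14 in MP2-α2Δ, 11.82 in MP2-α9α2 and 11.25 in MP2-mock cells. Signals of different probe sets are not on a common scale per molecule, so that the order between genes is only that of signal.

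**Figure D1:**
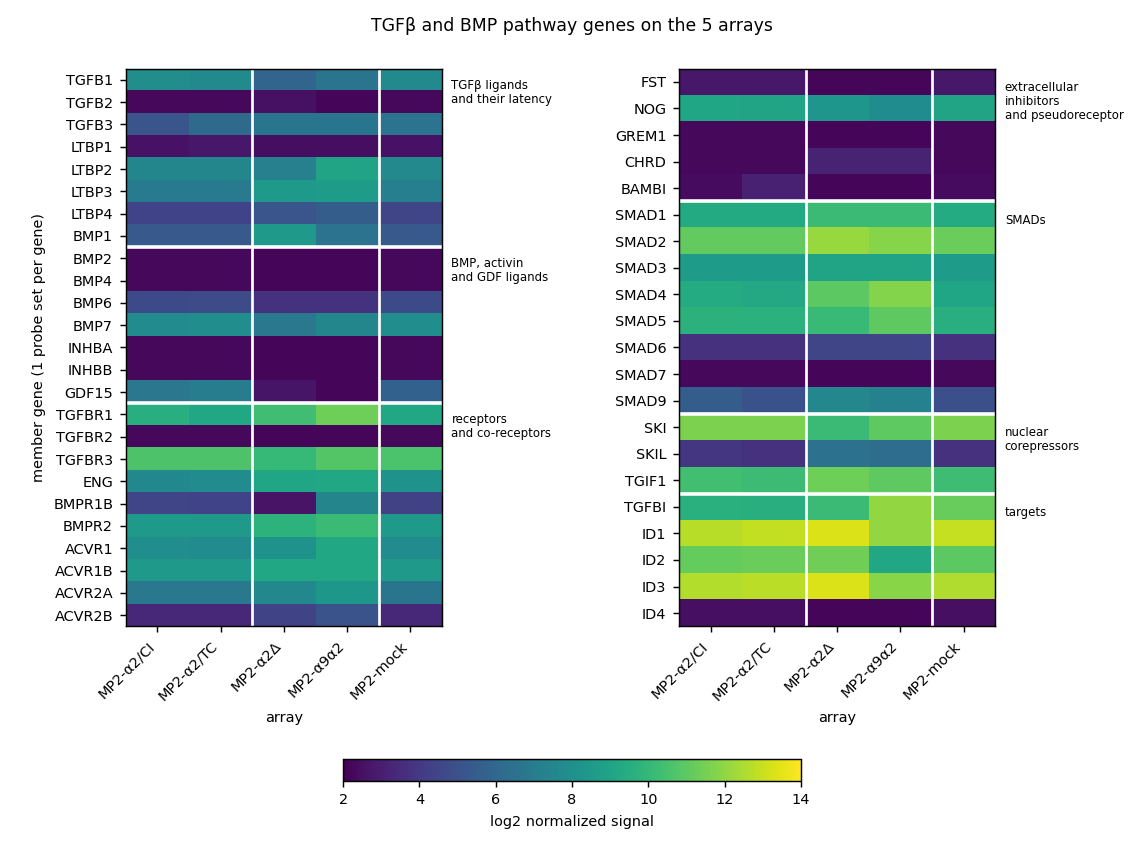
Log2 normalized signal (colour) of the 46 pathway genes on the arrays (rows, 1 probe set per gene, grouped by role) in the 5 populations (columns), with white vertical lines between the full-length α2 populations, the second normalization set and MP2-mock. BMP2, BMP4, INHBA, INHBB, TGFBR2, GREM1 and SMAD7 are dark on every array, and ID1 and ID3 are bright on every array.

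The first comparison was that of full-length α2 on plastic with empty vector, MP2-α2/TC over MP2-mock. Only TGFBI was lower and only GDF15 higher by 2-fold or more among the 37 pathway genes above the floor. Over all 12638 genes measured, 0.293% were higher and 0.38% lower by 2-fold. The median of the 37 genes was 0, as over all genes, 12 of them had the same value on both arrays, where 43.3% of all genes did, and 26 differed by less than 1.1-fold.

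TGFBI lies on chromosome 5 (chr5:136028988-136063818, GRCh38.p14) and was read by 1 probe set, 201506_at. Its log2 signal was 9.62 in MP2-α2/CI, 9.52 in MP2-α2/TC, 10.18 in MP2-α2Δ, 12.06 in MP2-α9α2 and 11.19 in MP2-mock cells. Both full-length α2 populations were low, MP2-mock cells stood above them, and MP2-α9α2 cells had the highest signal. TGFBI was 3.19-fold lower in MP2-α2/TC cells than in MP2-mock cells, a log2 difference of -1.67. It was 2.97-fold lower in MP2-α2/CI cells than in MP2-mock cells, a difference of -1.57. The 2 full-length α2 populations differed by 0.10. All of these signals lay far above the floor.

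GDF15, a stress-induced cytokine of the TGFβ superfamily, was read above the floor by 1 of its 3 probe sets, 221577_x_at. It had 6.74 in MP2-α2/CI, 7.10 in MP2-α2/TC, 2.66 in MP2-α2Δ, 2.21 in MP2-α9α2 and 5.74 in MP2-mock cells. The full-length α2 populations were above MP2-mock, and MP2-α2Δ and MP2-α9α2 cells were at or near the floor. The signal of MP2-α2/TC cells exceeded that of MP2-mock cells 2.58-fold, a log2 difference of 1.37, and that of MP2-α2/CI cells exceeded it 2.002-fold. The value for MP2-α2/CI met the 2-fold limit by a small margin, at 1.0016 on the log2 scale, and missed it with the arrays centred (0.99) or quantile normalized (0.97). The x in the probe set name marks probes that can read other transcripts, and its other 2 probe sets stood at the floor.

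Full-length α2 on collagenI over empty vector, MP2-α2/CI over MP2-mock, gave 1 gene higher and 2 lower by 2-fold among 37. The background was 0.267% higher and 0.396% lower of 12364 genes. Besides GDF15 and TGFBI, TGFB3 was lower. TGFB3 encodes the third TGFβ ligand, and its probe set 209747_at had 5.15 in MP2-α2/CI, 6.14 in MP2-α2/TC, 6.65 in MP2-α2Δ, 6.65 in MP2-α9α2 and 6.57 in MP2-mock cells. The MP2-α2/CI array was the low one, and MP2-α2/TC lay between it and MP2-mock. The signal was 2.67-fold lower in MP2-α2/CI cells than in MP2-mock cells, a log2 difference of -1.42, and the difference of MP2-α2/TC from MP2-mock was -0.43. The other TGFB3 probe set was at the floor on all 5 arrays.

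CollagenI against plastic in cells with the same construct, MP2-α2/CI over MP2-α2/TC, put no pathway gene past 2-fold among 37, where 0.0405% of 12354 genes were higher and 0.154% lower. The differences ran from -0.99 to 0.49. TGFB3 had the lowest, at 5.15 in MP2-α2/CI cells against 6.14 in MP2-α2/TC cells. BAMBI, a receptor-like protein without a kinase that blocks TGFβ and BMP receptors, had 2.33 in MP2-α2/CI cells against 3.12 in MP2-α2/TC cells, a difference of -0.79 close to the floor. SMAD9, a BMP receptor SMAD, had the highest, with 5.53 in MP2-α2/CI cells against 5.04 in MP2-α2/TC cells. In MP2-mock cells it had 4.95.

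**Figure D2:**
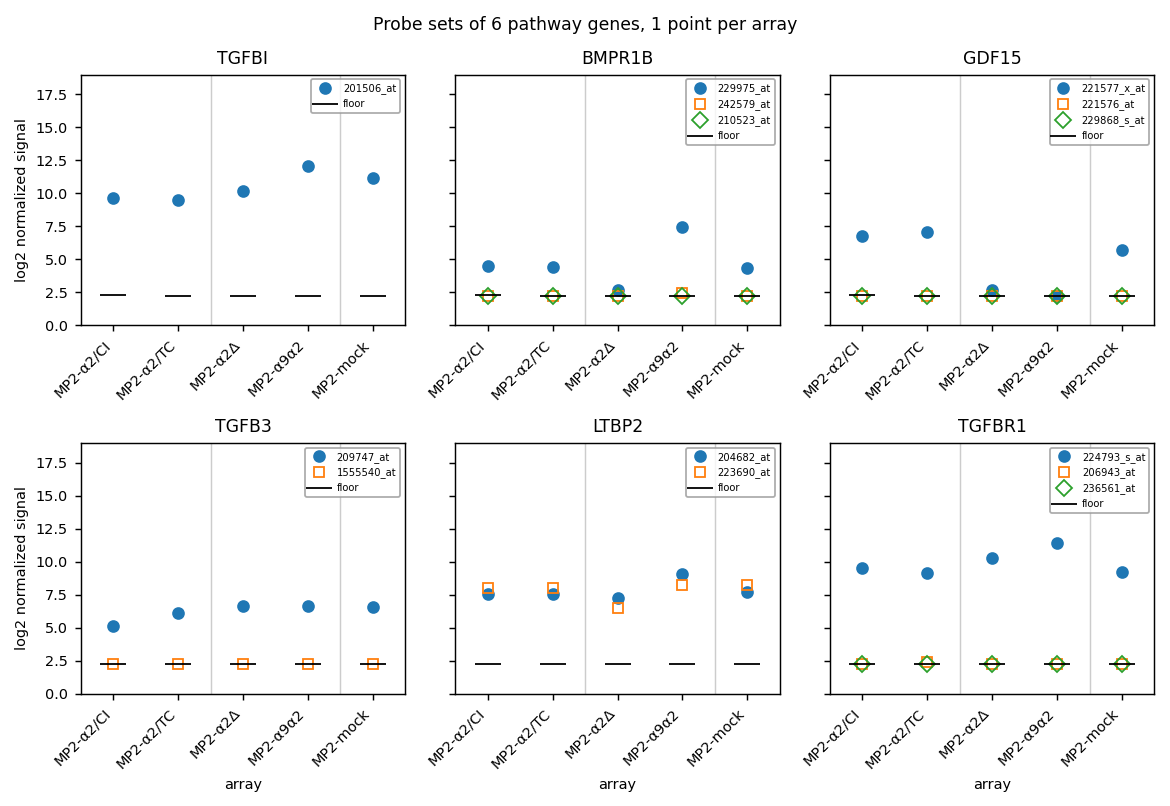
Log2 normalized signal (vertical axis) of every probe set of 6 pathway genes on the 5 arrays (horizontal axis), 1 point per array, with black bars at the array's floor and grey lines between the normalization sets. The filled circle is the probe set that stood for the gene. TGFBI lies at 9.62 and 9.52 in the full-length α2 populations and at 12.06 in MP2-α9α2 cells, and BMPR1B 229975_at lies at 7.48 in MP2-α9α2 cells and at 2.64 in MP2-α2Δ cells.

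The deposited signals of the rest of the pathway moved little between these 3 arrays. Of the TGFβ ligands and their latency proteins, 7 were above the floor, and TGFB1, the major ligand, had 7.94 in MP2-α2/CI and 7.73 in MP2-α2/TC cells, against 7.73 in MP2-mock cells. LTBP3, which aids TGFβ folding and secretion, had 6.89 in MP2-α2/CI and 6.89 in MP2-α2/TC cells, against 7.20 in MP2-mock cells. Among 9 receptors none reached 2-fold. TGFBR3 (betaglycan, a co-receptor that presents TGFβ) had the highest signal among them, 10.63 in MP2-α2/CI and 10.63 in MP2-α2/TC cells, against 10.59 in MP2-mock cells. ENG (endoglin, a co-receptor for BMP9) had 7.59 in MP2-α2/CI and 7.80 in MP2-α2/TC cells, against 8.11 in MP2-mock cells, and the differences of -0.52 and -0.31 were the largest decreases among receptors. They rest on 1 probe set, since 201808_s_at of ENG had 4.90 in MP2-α2/CI and 4.94 in MP2-α2/TC cells, against 4.94 in MP2-mock cells. TGFBR1, the type I TGFβ receptor, had 9.53 in MP2-α2/CI and 9.15 in MP2-α2/TC cells, against 9.19 in MP2-mock cells.

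Among the SMADs above the floor, SMAD9 differed from MP2-mock by 0.58 in MP2-α2/CI cells and by 0.09 in MP2-α2/TC cells. SMAD4, the partner shared by both branches, had 9.37 in MP2-α2/CI and 9.25 in MP2-α2/TC cells, against 9.07 in MP2-mock cells. By the probe sets that stood for them, the corepressors SKI and SKIL, which bind SMADs and block transcription, showed differences of 0.21 or less. SKI was 11.61 on each of the 3 arrays. SKIL 217591_at differed from MP2-mock by 0.42 in MP2-α2/TC cells and by 0 in MP2-α2/CI cells. NOG (noggin, a secreted BMP trap) had 9.05 in MP2-α2/CI and 9.02 in MP2-α2/TC cells, against 9.02 in MP2-mock cells. ID1, ID2 and ID3 differed from MP2-mock by -0.22 to 0.26 in the full-length α2 populations. LTBP1, LTBP4, BMP6, ACVR1B, ACVR2B, SMAD1, SMAD3, SMAD6 and TGIF1 differed little from MP2-mock in either population. By the probe sets that stood for them, the log2 differences were at most 0.19 in size. SMAD1 227798_at differed from MP2-mock by 0.32 in MP2-α2/CI cells and by 0.04 in MP2-α2/TC cells. Of the 34 pathway genes above the floor on all 5 arrays, 7 had the same value on these 3, within 1e-06. Equal values were frequent over all genes too, at 43.3% in MP2-α2/TC over MP2-mock and 37.2% in MP2-α2/CI over MP2-mock. Whether they come from the cells or from the processing was not tested, and the same holds for the small differences.

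The comparison of tail-deleted α2 with the chimera that carries the α2 tail, MP2-α2Δ over MP2-α9α2, put 9 of 37 pathway genes past 2-fold. BMP1, ID1, ID2 and ID3 were higher and LTBP2, TGFBR1, BMPR1B, ACVR1 and TGFBI lower. The background was wide, with 10.1% of 12924 genes higher and 4.97% lower, and 4 and 5 of 37 genes stand against these shares. The median of the 37 differences was -0.01, against 0 over all genes, and their range ran from -4.84 to 2.23. Of the 134 probe sets of the pathway, 91 were above the floor on either array, and 7 were higher and 8 lower by 2-fold. The share over all probe sets was not taken, so that these probe set counts have no background beside them.

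BMPR1B, a type I BMP receptor, showed the largest difference. Probe set 229975_at had 4.50 in MP2-α2/CI, 4.39 in MP2-α2/TC, 2.64 in MP2-α2Δ, 7.48 in MP2-α9α2 and 4.32 in MP2-mock cells. The MP2-α9α2 array was the high one, MP2-α2Δ was near the floor, and the first set lay between them with little spread. MP2-α2Δ cells thus had a 28.7-fold lower signal than MP2-α9α2 cells, or -4.84 on the log2 scale. Since 2.64 is near the floor, the size of this difference depends on it, and with a floor of 4 it was -3.48. Probe set 242579_at had 2.24 in MP2-α2/CI, 2.24 in MP2-α2/TC, 2.21 in MP2-α2Δ, 2.47 in MP2-α9α2 and 2.24 in MP2-mock cells. Probe set 210523_at lay between 2.21 and 2.24 on all 5 arrays. All 3 probe sets were lower in MP2-α2Δ cells, but only 229975_at read a difference above 2-fold, and it rests on that probe set.

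The receptors as a group were lower in MP2-α2Δ cells than in MP2-α9α2 cells. All 9 above the floor had a difference below 0, with a median of -0.72, where 39.3% of all genes were below 0. Only 3 of the 9 reached 2-fold. Over the 24 receptor probe sets above the floor, 15 were below 0, 8 were equal and 1 was above, and 4 were lower by 2-fold. For these probe set counts too, the share over all probe sets was not taken. TGFBR1 had 10.30 in MP2-α2Δ cells against 11.37 in MP2-α9α2 cells, 2.09-fold lower. It was read by 1 probe set, 224793_s_at, since the other 2 were at the floor on both arrays. ACVR1 (ALK2, a type I receptor for BMPs) had 8.13 in MP2-α2Δ cells against 9.14 in MP2-α9α2 cells, 2.02-fold lower. Of the 6 that did not reach 2-fold, the type II receptor ACVR2A had 7.61 in MP2-α2Δ cells against 8.36 in MP2-α9α2 cells, and its other probe set, 228416_at, had 5.94 in MP2-α2Δ cells against 7.08 in MP2-α9α2 cells, past 2-fold. TGFBR3 had 10.06 in MP2-α2Δ cells against 10.78 in MP2-α9α2 cells. ACVR2B, another type II activin receptor, had 4.46 in MP2-α2Δ cells against 5.07 in MP2-α9α2 cells, and BMPR2, the type II BMP receptor, had 9.76 in MP2-α2Δ cells against 10.20 in MP2-α9α2 cells. ENG and ACVR1B differed by -0.12 and -0.01.

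Among the ligands and their latency proteins, LTBP2 was lower and BMP1 higher. LTBP2, a matrix protein of the latent TGFβ binding family that does not itself bind latent TGFβ, was lower by both of its probe sets. Probe set 204682_at had 7.51 in MP2-α2/CI, 7.51 in MP2-α2/TC, 7.24 in MP2-α2Δ, 9.02 in MP2-α9α2 and 7.66 in MP2-mock cells. Probe set 223690_at had 7.97 in MP2-α2/CI, 7.97 in MP2-α2/TC, 6.49 in MP2-α2Δ, 8.23 in MP2-α9α2 and 8.19 in MP2-mock cells. MP2-α2Δ was the lowest of the 5 arrays by both. The log2 differences of MP2-α2Δ from MP2-α9α2 were -1.78 and -1.73.

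BMP1 is, despite its name, a metalloprotease that processes procollagen and frees latent complexes from the matrix. Probe set 202701_at had 5.37 in MP2-α2/CI, 5.37 in MP2-α2/TC, 8.50 in MP2-α2Δ, 6.55 in MP2-α9α2 and 5.37 in MP2-mock cells. MP2-α2Δ was the high array, and the first set shared 1 value. The signal was 3.87-fold higher in MP2-α2Δ cells than in MP2-α9α2 cells. Of its 6 probe sets above the floor, 3 were higher by 2-fold and 5 were higher at all, with none lower.

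TGFBI itself was 3.67-fold lower in MP2-α2Δ cells than in MP2-α9α2 cells, or -1.88 on the log2 scale. TGFB1 had 5.90 in MP2-α2Δ cells against 6.63 in MP2-α9α2 cells, and TGFB3 had 6.65 in both. BMP7, a BMP known from kidney development, had 6.81 in MP2-α2Δ cells against 7.51 in MP2-α9α2 cells by the probe set that stood for it. Its probe set 209590_at had 6.05 in MP2-α2Δ cells against 7.78 in MP2-α9α2 cells, a difference of -1.73, and another, 211259_s_at, had 6.68 on both. Its probe sets thus disagreed on the size of the difference.

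**Figure D3:**
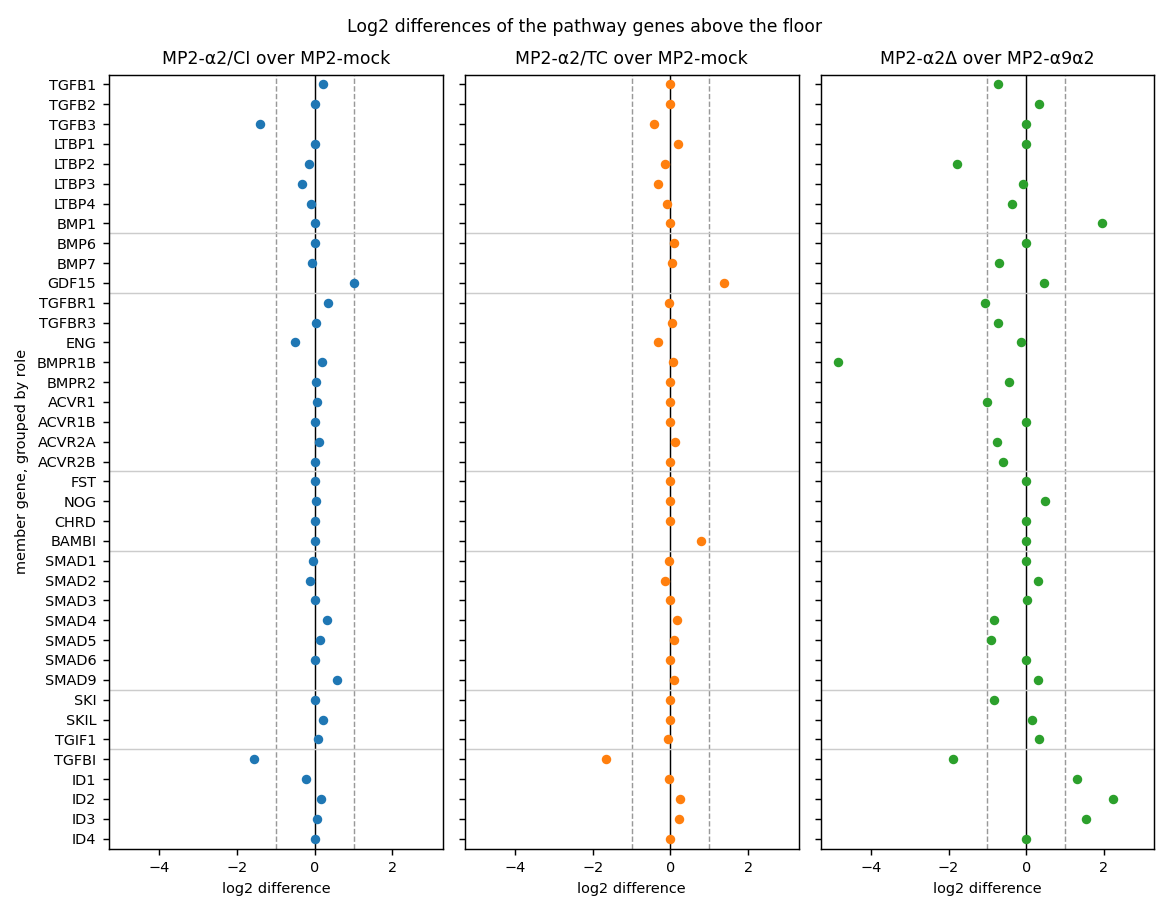
Log2 difference (horizontal axis) of each pathway gene above the floor on at least 1 array (rows, grouped by role) for the 2 full-length α2 populations over MP2-mock and for MP2-α2Δ over MP2-α9α2, with dashed lines at 2-fold. In the first 2 panels only TGFBI, TGFB3 and GDF15 reach a dashed line, and in the last BMPR1B lies at -4.84 and ID2 at 2.23.

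Of the ID genes, 3 were higher together in MP2-α2Δ cells than in MP2-α9α2 cells. ID2, an inhibitor of helix-loop-helix factors like ID1 and ID3, had 11.17 in MP2-α2/CI, 11.25 in MP2-α2/TC, 11.41 in MP2-α2Δ, 9.18 in MP2-α9α2 and 10.999 in MP2-mock cells. Its second probe set, 201566_x_at, had 8.60 in MP2-α2/CI, 8.54 in MP2-α2/TC, 9.10 in MP2-α2Δ, 6.88 in MP2-α9α2 and 8.53 in MP2-mock cells. MP2-α9α2 was the low array by both probe sets. ID3 had 12.62 in MP2-α2/CI, 12.77 in MP2-α2/TC, 13.38 in MP2-α2Δ, 11.84 in MP2-α9α2 and 12.56 in MP2-mock cells. MP2-α9α2 was again the lowest array, and as deposited MP2-α2Δ was the highest, as for ID1. That place did not hold against MP2-mock with the arrays centred. Signals were higher in MP2-α2Δ cells than in MP2-α9α2 cells by 2.47-fold for ID1, 4.68-fold for ID2 and 2.90-fold for ID3. The names of all these probe sets end in _s_at or _x_at, so that none remains when such probe sets are left out. ID4 read 2.48 or less on every array.

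The sequences just upstream of TGFBI, ID1, ID2 and ID3 are given because these 4 target genes passed 2-fold in this pair of arrays, ID1, ID2 and ID3 in the same direction. They are the 250 bases before each gene's start from RefSeq (GRCh38.p14), 5′ to 3′ on the gene's own strand, which is the plus strand for TGFBI, ID1 and ID2 and the minus strand for ID3. Such a window was found for 41 of the 46 genes. Capitals mark matches on either strand to CAGAC (reverse complement GTCTG), a box that SMAD3 and SMAD4 bind, and to GGCGCC (its own reverse complement), a GC-rich site bound by SMADs.
TGFBI chr5:136028738-136028987: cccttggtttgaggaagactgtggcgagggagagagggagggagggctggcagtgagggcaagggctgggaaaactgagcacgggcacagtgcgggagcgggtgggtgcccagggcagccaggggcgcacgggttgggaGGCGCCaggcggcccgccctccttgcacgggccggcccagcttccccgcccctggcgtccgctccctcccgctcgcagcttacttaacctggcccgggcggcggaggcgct
ID1 chr20:31605039-31605288: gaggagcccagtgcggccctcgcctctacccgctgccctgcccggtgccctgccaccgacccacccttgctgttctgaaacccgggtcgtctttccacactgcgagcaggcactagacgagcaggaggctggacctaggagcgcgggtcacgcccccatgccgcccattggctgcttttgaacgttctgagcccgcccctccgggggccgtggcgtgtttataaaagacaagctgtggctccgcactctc
ID2 chr2:8681806-8682055: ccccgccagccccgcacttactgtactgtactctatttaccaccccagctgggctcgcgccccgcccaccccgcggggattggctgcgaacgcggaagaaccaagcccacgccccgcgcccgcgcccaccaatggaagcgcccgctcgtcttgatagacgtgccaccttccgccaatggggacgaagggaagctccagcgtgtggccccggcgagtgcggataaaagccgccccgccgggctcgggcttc
ID3 chr1:23559502-23559751: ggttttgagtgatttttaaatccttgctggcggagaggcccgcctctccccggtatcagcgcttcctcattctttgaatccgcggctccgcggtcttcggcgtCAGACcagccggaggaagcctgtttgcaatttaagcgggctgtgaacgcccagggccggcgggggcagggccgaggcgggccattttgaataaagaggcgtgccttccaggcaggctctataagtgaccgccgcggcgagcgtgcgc
The TGFBI window held 1 GGCGCC, 111 bases upstream of the start, and no CAGAC. The ID3 window held 1 CAGAC, 147 bases upstream, and the ID1 and ID2 windows held neither motif. Among 35116 windows of 250 bases before genes, 38.0% held CAGAC and 16.38% held GGCGCC, so that such matches are frequent. The windows were rich in G and C, with 72.8% for TGFBI, 66.0% for ID1, 69.2% for ID2 and 62.0% for ID3.

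**Figure D4:**
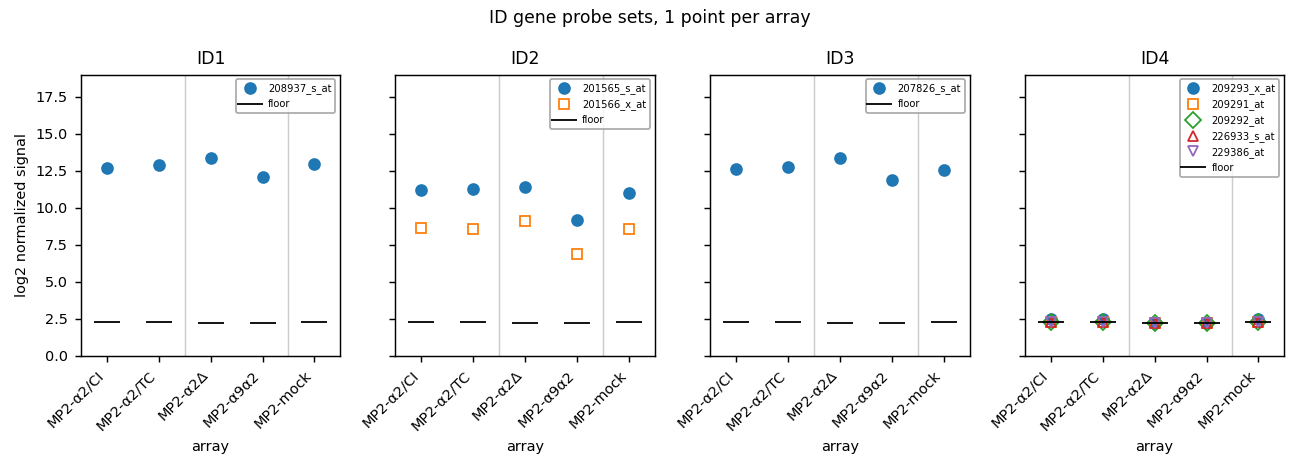
Log2 normalized signal (vertical axis) of every probe set of ID1, ID2, ID3 and ID4 on the 5 arrays (horizontal axis), 1 point per array, with black bars at the array's floor. ID1, ID2 and ID3 are lowest in MP2-α9α2 cells (12.07, 9.18 and 11.84), while ID4 stays at 2.48 or less.

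No SMAD reached 2-fold between MP2-α2Δ and MP2-α9α2 cells. SMAD5, a BMP receptor SMAD, had 10.11 in MP2-α2Δ cells against 11.02 in MP2-α9α2 cells, and SMAD4 had 10.96 in MP2-α2Δ cells against 11.79 in MP2-α9α2 cells. SMAD1 and SMAD3 differed by -0.01 and 0.01 by the probe sets that stood for them, but SMAD1 227798_at differed by 0.76, SMAD3 205397_x_at by 0.77 and SMAD3 205398_s_at by 0.46. The corepressor SKI had 10.18 in MP2-α2Δ cells against 11.02 in MP2-α9α2 cells, a difference of -0.84. TGIF1, a homeodomain corepressor of SMAD2, had 11.35 in MP2-α2Δ cells against 11.01 in MP2-α9α2 cells. NOG had 8.29 in MP2-α2Δ cells against 7.82 in MP2-α9α2 cells.

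MP2-α2Δ and MP2-α9α2 cells were also set against MP2-mock cells, across arrays taken to be normalized in separate sets, so that these values hold the difference between the sets as well as that between the cells. Both comparisons use the same MP2-mock array. As deposited, MP2-α2Δ over MP2-mock had 9 of 39 pathway genes higher and 6 lower by 2-fold, with a median of 0.44, against 0.42 over all genes. The background was 31.2% higher and 7.1% lower of 13007 genes. MP2-α9α2 over MP2-mock had 15 of 38 higher and 4 lower, with a median of 0.79, against 0.38 over all genes, where 32.7% of 12968 genes were higher and 11.3% lower. With the arrays centred on a common median the pathway counts were 4 higher and 10 lower for MP2-α2Δ, and 5 higher and 9 lower for MP2-α9α2. Quantile normalization gave 4 higher and 10 lower for MP2-α2Δ, and 7 higher and 9 lower for MP2-α9α2. The share of higher genes among all those past 2-fold was 81.4% as deposited, 36.8% centred and 46.1% quantile normalized for MP2-α2Δ, and 74.3%, 39.7% and 46.6% for MP2-α9α2. The direction of the group as a whole across the sets thus depended on the scaling.

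Single genes that stayed past 2-fold in 1 direction under all 3 scalings were fewer. For MP2-α2Δ over MP2-mock, BMP1 (2.29 to 3.13), SKIL (1.92 to 2.76), SMAD9 (1.75 to 2.62) and SMAD4 (1.05 to 1.89) were higher. SKIL, the SMAD corepressor SnoN, had 3.90 in MP2-α2/CI, 3.70 in MP2-α2/TC, 6.46 in MP2-α2Δ, 6.30 in MP2-α9α2 and 3.70 in MP2-mock cells, so that both arrays of the second set were high. TGFBI (-1.85 to -1.01), TGFB1 (-2.70 to -1.82), BMP7 (-1.92 to -1.06), BMPR1B (-2.07 to -1.68), GDF15 (-3.49 to -3.07) and SKI (-2.28 to -1.44) were lower. The TGFBI signal was thus lower than in MP2-mock cells in MP2-α2/CI, MP2-α2/TC and MP2-α2Δ cells. In MP2-α9α2 cells the difference from MP2-mock was 0.87 as deposited, 0.06 centred and 0.34 quantile normalized. The first 3 populations share the α2 extracellular part, panning on collagenI and zeocin, which cannot be told apart here. For MP2-α9α2 over MP2-mock, BMPR1B (2.36 to 3.16), SMAD4 (1.92 to 2.73), SKIL (1.80 to 2.61), SMAD9 (1.48 to 2.31) and TGFBR1 (1.37 to 2.17) were higher. TGFB1 (-1.91 to -1.10), NOG (-2.01 to -1.21), ID2 (-2.62 to -1.82) and GDF15 (-3.85 to -3.48) were lower. GDF15 was at the floor in MP2-α9α2 cells, so that its difference there depends on the floor, as does that of BMPR1B in MP2-α2Δ cells. These calls are those of the probe set that stood for each gene, and others of the same gene did not always share them. As deposited, MP2-α2Δ differed from MP2-mock by -1.38 for BMP1 206725_x_at, by 0.08 for BMP7 209590_at and 0.89 for BMP7 211260_at, by 0.56 for SKI 204270_at and by 0.12 for SKIL 217591_at.

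BMPR1B was lower than MP2-mock in MP2-α2Δ cells and higher in MP2-α9α2 cells under each scaling, and its probe set 229975_at differed from it by 0.18 in MP2-α2/CI cells and by 0.07 in MP2-α2/TC cells. Its signal of 2.64 in MP2-α2Δ cells is near the floor, and MP2-mock cells had 4.32. With a floor of 4 the difference between MP2-α2Δ and MP2-mock cells is therefore under 2-fold. ID1 and ID3 did not keep a 2-fold difference from MP2-mock. ID1 in MP2-α9α2 cells differed by -0.86 as deposited, -1.66 centred and -1.34 quantile normalized, and ID3 by -0.71, -1.52 and -1.20. In MP2-α2Δ cells the difference of ID1 was 0.44 as deposited, -0.40 centred and 0.01 quantile normalized. Of 38 pathway genes measured under all 3 scalings, 11 changed sign for MP2-α2Δ and 7 for MP2-α9α2.

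**Figure D5:**
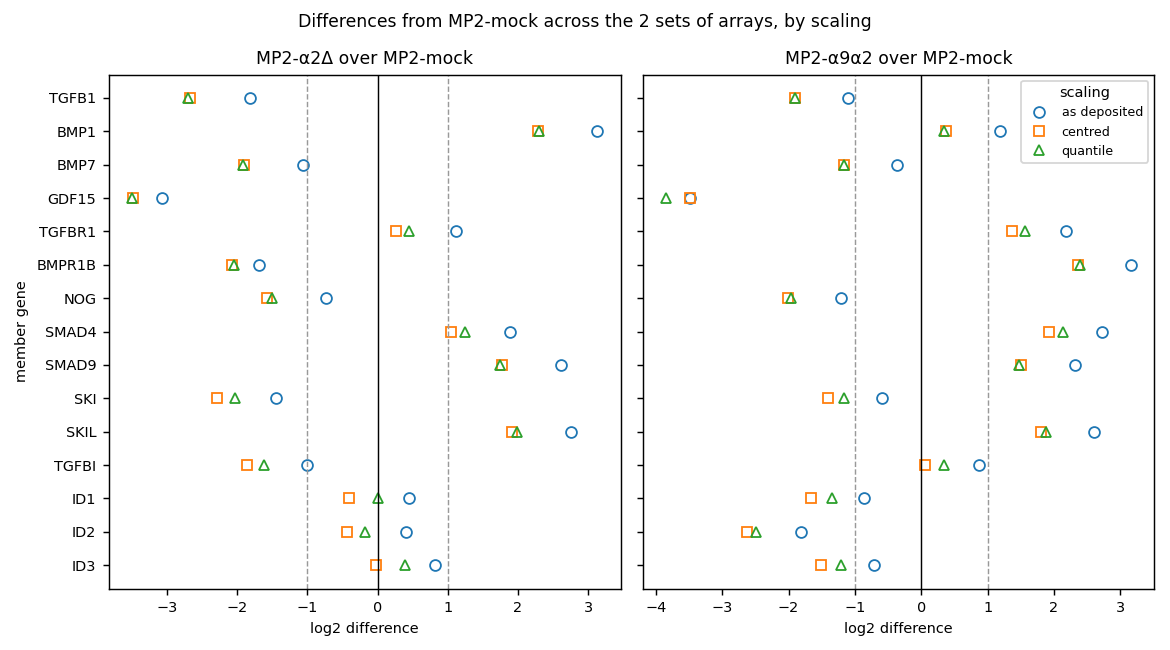
Log2 difference from MP2-mock (horizontal axis) of 15 pathway genes (rows) for MP2-α2Δ and for MP2-α9α2, as deposited (circles), with arrays centred on a common median (squares) and after quantile normalization (triangles), with dashed lines at 2-fold. TGFB1 and GDF15 are left of -1 and SMAD4, SMAD9 and SKIL right of 1 under every scaling in both panels, while ID1 in MP2-α2Δ cells lies at 0.44, -0.40 and 0.01.

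Further genes of the pathway were taken from 5 lists, none of which holds any of the 46 genes. Of 31 TGFβ and SMAD target genes on the arrays, 24 were above the floor in MP2-α2/TC over MP2-mock, where CCN2, a matricellular growth factor, was the only gene past 2-fold. It had 3.01 in MP2-α2/CI, 4.37 in MP2-α2/TC, 2.21 in MP2-α2Δ, 2.21 in MP2-α9α2 and 3.02 in MP2-mock cells, so that only the MP2-α2/TC array stood out. Of 23 in MP2-α2/CI over MP2-mock, none passed. In MP2-α2/CI over MP2-α2/TC, CCN2 and TAGLN (transgelin, an actin-binding protein) of 23 were lower, by log2 differences of -1.36 and -1.04. In MP2-α2Δ over MP2-α9α2, 20 were measured, and CDKN1A (the cell cycle inhibitor p21, 1.16) and HEY1 (a Notch and BMP target, 1.56) were higher and TGM2 (transglutaminase 2, -1.60) lower. Over all genes, 0.293% were higher and 0.38% lower by 2-fold in MP2-α2/TC over MP2-mock. The shares were 0.267% and 0.396% in MP2-α2/CI over MP2-mock, and 0.0405% and 0.154% in MP2-α2/CI over MP2-α2/TC. In MP2-α2Δ over MP2-α9α2 they were 10.1% and 4.97%, and the 2 higher and 1 lower of 20 lie near them. The median of the target list was 0 in each of these 4 comparisons, as over all genes. THBS1 (thrombospondin 1, which can activate latent TGFβ) was not above the floor on any array.

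Of 20 SMAD partners and regulators, all measured, only NEDD4L, a ubiquitin ligase that acts on activated SMAD2 and SMAD3, passed 2-fold. It had 8.17 in MP2-α2/CI, 8.82 in MP2-α2/TC, 5.29 in MP2-α2Δ, 7.93 in MP2-α9α2 and 6.64 in MP2-mock cells. MP2-α2/CI cells exceeded MP2-mock cells by 1.53 on the log2 scale, MP2-α2/TC cells by 2.18, and MP2-α2Δ over MP2-α9α2 was -2.64. NEDD4L was thus 1 gene of 20 in each of these comparisons. Of all genes, 0.267% were higher in MP2-α2/CI over MP2-mock and 0.293% in MP2-α2/TC over MP2-mock. In MP2-α2Δ over MP2-α9α2, 4.97% of all genes were lower. The median of the 20 genes in MP2-α2Δ over MP2-α9α2 was -0.32, against 0 over all genes. Among 7 other ligands measured, BMP8B alone passed, with 7.18 in MP2-α2Δ cells against 8.43 in MP2-α9α2 cells. Among 5 other extracellular inhibitors, FSTL1 (a follistatin-like secreted protein) alone passed, with 4.91 in MP2-α2Δ cells against 6.98 in MP2-α9α2 cells. BMP8B and FSTL1 were each 1 lower gene of their list, where 4.97% of all genes were lower in this pair. Of 8 other receptors and co-receptors measured in that pair, 2 were higher and 3 lower, where 10.1% of all genes were higher and 4.97% lower. ITGB8, the integrin chain that with αv activates latent TGFβ, had 6.70 in MP2-α2Δ cells against 9.14 in MP2-α9α2 cells. NRROS, which anchors latent TGFβ on myeloid cells, had 7.40 in MP2-α2Δ cells against 5.34 in MP2-α9α2 cells. NRP1, a co-receptor, had 5.005 in MP2-α2Δ cells and was at the floor in MP2-α9α2 cells. RGMB, a BMP co-receptor, had 9.42 in MP2-α2Δ cells against 10.97 in MP2-α9α2 cells, and CD109, a TGFβ co-receptor, had 11.34 in MP2-α2Δ cells against 12.45 in MP2-α9α2 cells. No gene of the ligand, receptor or inhibitor lists passed 2-fold among the 3 arrays of the first set.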

How the data were processed

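RNA of 5 populations was measured on 1 Affymetrix array each. Normalized values deposited by the authors were taken as log2 from their range. Credit for GCRMA and MAS5 goes to the submitters' processing notes, and their versions and roles are not given in the sources used here. Which arrays were normalized together was inferred from the shared minimum. From these values, 62 control probe sets of 54675 were left out, and of the rest 41091 carried 1 gene symbol, 1801 several and 11721 none. Genes were named from the first kind only, with symbols brought up to date through a RefSeq table of GRCh38.p14. The floor of an array was the 95th percentile over 107 probe sets of odorant receptors, and a difference used the higher floor of its pair. A gene was measured where its probe set exceeded the floor on either array, and was counted at 2-fold or more. No sample column was left unused. With 1 array per population no test was run and precision could not be measured. Signal over the floor served only to call a gene measured. Named genes are all probe sets of TGFBI and BMPR1B, every member past 2-fold within a set, the members of highest mean by role, and up to 3 genes of each other list per comparison. Further members and probe sets, such as BAMBI, 228416_at and 209590_at, and RGMB and CD109 of the receptor list, were named after their values were seen. The members, lists and rules were chosen with earlier results of these data known. Alternatives were 1.5-fold and 3-fold limits, other floors, centring, quantile normalization, the median of a gene's probe sets and leaving out _x_at and _s_at probe sets. Python 3.11.15, pandas 2.3.3 and numpy 2.4.6 were used.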

Additional observations from a re-analysis of the deposited data

Results flagged for a closer look

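A few pathway genes lay on opposite sides of MP2-mock in the 2 full-length α2 populations, with the difference between the populations not tested since each had 1 array. TGFBR1 differed from MP2-mock by 0.341 in MP2-α2/CI cells and by -0.0463 in MP2-α2/TC cells. BMP7 differed by -0.0679 in MP2-α2/CI cells and by 0.0309 in MP2-α2/TC cells. ACVR1 differed by 0.07 in MP2-α2/CI cells and by -0.0212 in MP2-α2/TC cells. TGIF1 differed by 0.0747 in MP2-α2/CI cells and by -0.0643 in MP2-α2/TC cells. All of these log2 differences were under 1.5-fold.

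A probe set that the annotation assigns to both ID2 and ID2B was left out of all counts and was above the floor on every array. Its log2 signal was 5.84 in MP2-α2/CI, 5.84 in MP2-α2/TC, 3.41 in MP2-α2Δ, 2.66 in MP2-α9α2 and 5.70 in MP2-mock cells, with MP2-α2Δ over MP2-α9α2 at 0.75. As deposited it was thus lower in MP2-α2Δ than in MP2-mock cells. By contrast, ID2 201565_s_at and 201566_x_at were higher there, by 0.41 and 0.57.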

How the results depend on the processing

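Of the alternative values of the counts and of the TGFBI differences, 62 stayed within 1.5 times the reported value (TGFBI also on its side of 2-fold) and 16 moved. Counts do not show direction, and the split of higher and lower genes across the normalization sets turned with the scaling, with 4 higher and 10 lower for MP2-α2Δ over MP2-mock when centred, against 9 and 6 as deposited, and 5 higher and 9 lower for MP2-α9α2 over MP2-mock, against 15 and 4. With a 3-fold limit the count of pathway genes was 1 in MP2-α2/TC over MP2-mock, 0 in MP2-α2/CI over MP2-mock, 5 in MP2-α2Δ over MP2-α9α2, 7 in MP2-α2Δ over MP2-mock and 10 in MP2-α9α2 over MP2-mock. With a 1.5-fold limit it was 2 in MP2-α2/CI over MP2-α2/TC, 17 in MP2-α2Δ over MP2-α9α2, 26 in MP2-α2Δ over MP2-mock and 29 in MP2-α9α2 over MP2-mock. The shares over all genes at the 3-fold and 1.5-fold limits were not taken, so that these counts have no background beside them. With the median of a gene's probe sets the count was 1 in MP2-α2/TC over MP2-mock and 1 in MP2-α2/CI over MP2-mock, and without _x_at and _s_at probe sets it was 1 in MP2-α2/TC over MP2-mock. For TGFBI, MP2-α2Δ over MP2-mock was -1.85 centred and -1.61 quantile normalized, and MP2-α9α2 over MP2-mock was 0.061 centred and 0.34 quantile normalized. For single genes, 52 alternative values stayed and 11 moved. With the median of probe sets these were GDF15 (0), TGFB3 in MP2-α2/CI over MP2-mock (-0.71), and in MP2-α2Δ over MP2-α9α2 BMP1 (0.17), TGFBR1 (0) and BMPR1B (-0.26), most of whose other probe sets were at or near the floor. Without _x_at and _s_at probe sets GDF15 and TGFBR1 were at 0. ID1, ID2 and ID3 had only such probe sets and drop out there. MP2-α2Δ over MP2-α9α2 then had 1 pathway gene higher and 6 lower.

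No paired analysis was possible because each population had 1 array, and there was no replicate to leave out. A difference between these arrays has no error. Probe sets at the array minimum give no order below it.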
